A study of Mus musculus with 4 samples.

Results

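The interferon regulatory factors are a family of transcription factors, and 8 of their genes were followed here: Irf1, Irf2, Irf3, Irf4, Irf5, Irf7, Irf8 and Irf9. They were picked by symbol from the 22558 gene symbols of the deposited expression files. The series profiled messenger RNA of whole mouse retinas by sequencing, in 4 libraries that are each the only one of their group. The DTA groups, at day 1 and at day 5 after injury, came from mice of the genotype Msi1-CreERT2/+; R26R-DTA/+. The control groups, at the same days, were +/+; R26R-DTA/+, so all 4 libraries carry the R26R-DTA allele and only the DTA groups carry the recombinase. DTA is the A fragment of diphtheria toxin, which stops protein synthesis in the cells that make it; CreERT2 is a recombinase that acts after exposure to tamoxifen, here under the Msi1 gene, which encodes the RNA-binding protein Musashi-1. All mice were about 8 weeks old, on a mixed C57BL/6 and 129 background. How many mice went into a library was not stated in the material used here, so no spread between animals can be had, and no test across samples was made.

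Interferon regulatory factors share a DNA-binding domain at their amino end that recognises GAAA repeats, the core of the interferon-stimulated response element (ISRE). Irf3 and Irf7 wait in the cytoplasm until the kinases TBK1 and IKK epsilon, downstream of sensors of foreign or misplaced nucleic acid, phosphorylate them, and they then switch on interferon genes. Interferon bound to its receptor activates JAK kinases and STAT factors; IRF9 is the DNA-binding subunit of the complex ISGF3, which binds the ISRE, while STAT dimers bind the gamma-activated site (GAS) and induce Irf1. In nervous tissue such as the retina, Irf8 and Irf5 are best known from microglia, the resident macrophages.

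Levels are in FPKM as deposited by the authors: fragments divided by transcript length in kilobases and by the fragments of the library, on a fixed scale. A difference is the first-named library minus the second on the log2(FPKM + 1) scale, which understates the change of low genes. A gene counted as called, higher or lower, under 3 conditions: a size of 1 or more for the difference, 5 FPKM or more in one library of the pair, and a difference larger than that gene's difference between the 2 controls. Such a call describes these libraries, not the conditions. The DTA day 1 file is short, with 5799 symbols, and holds 2 of the 8 members, Irf1 and Irf4; the other 6 were not analysed here at day 1 in DTA. The files hold no fragment counts; from the smallest steps between low values the depth was estimated at 28.2 to 97.7 M fragments, with DTA day 5 the shallowest. Retinal markers were present in the libraries, with the rod arrestin gene Sag at 1412 and 1444 FPKM in DTA day 1 and day 5 and at 1149 and 1559 FPKM in control day 1 and day 5. Sag changed least at day 5 of the 9 rod markers measured, of which 6 were lower in DTA by a size of 1 or more. Gnat1, with the largest fall, had 739 FPKM in DTA day 5 and 6678 FPKM in control day 5. The 9 markers of the lens, a tissue beside the retina, summed to 15.0 FPKM in DTA day 5, against 244 FPKM in control day 5 and 1540 FPKM in control day 1, and their part in the results was not tested.

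At day 5, 5 of the 8 members were called higher in DTA than in control and none was called lower: Irf1, Irf9, Irf8, Irf7 and Irf2, in falling order of the difference. Over all 22527 genes with a value in both libraries, 2.96% were called higher and 0.777% lower. Of the 9883 genes that reached 5 FPKM in one of the 2 libraries, 6.75% were called higher; 6 members were among those 9883, of which Irf1, Irf7 and Irf8 passed only through their DTA value. The median difference of the 8 members was 1.69, beside 0.06 over all genes. Between the control day 5 and control day 1 libraries 4 members reached 5 FPKM and none was called, where 0.355% of all genes were called higher and 0.71% lower. The FPKM scale itself shifted at day 5: scaling by median ratios moved the median difference of genes at 5 FPKM or more by -0.24, and the split of all calls from 667 higher and 175 lower to 424 higher and 255 lower. Of 9 rod markers measured, 6 were called lower in DTA day 5 than in control day 5, with a median difference of -1.58. The same 5 members were called with and without that scaling. In bulk tissue, fewer cells of a type and less RNA per cell cannot be told apart, and neither can more cells and more RNA per cell.

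**Figure D1:**
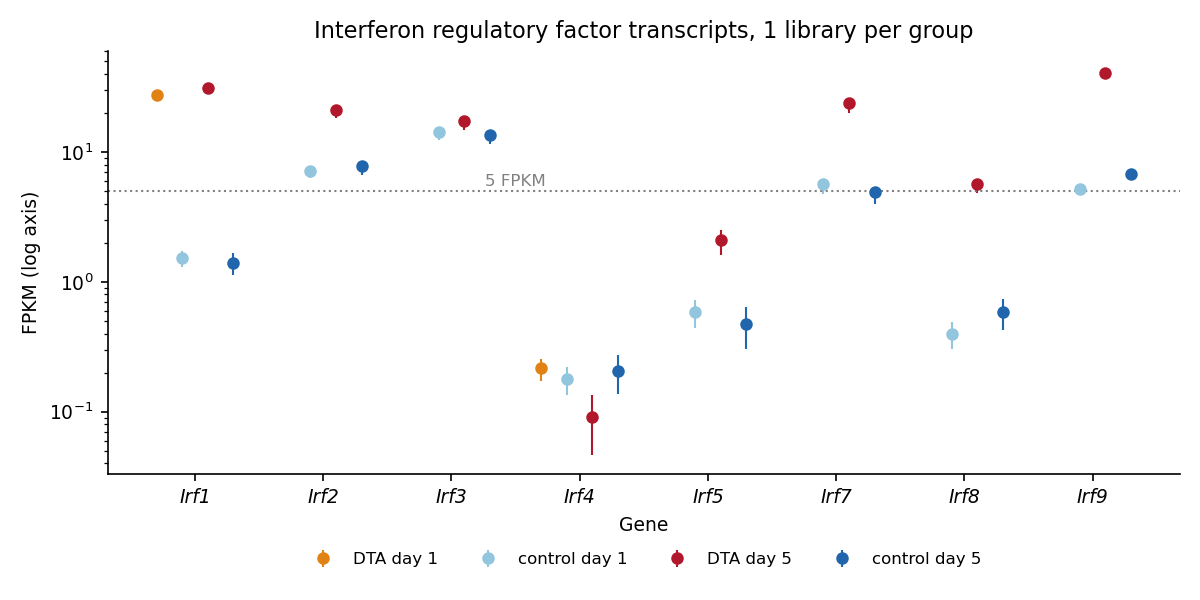
FPKM of each member in each library on a log axis, with bars for the lower and upper bounds that the authors deposited and a line at 5 FPKM. Irf1 sits at 27.5 and 30.9 FPKM in the DTA libraries, against 1.52 and 1.40 FPKM in the controls, and the 6 members without a DTA day 1 point have no line in that file.

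The promoters of Irf1, Irf2 and Irf8 are shown because they are the member promoters that held a match to a motif of the pathways above. Each is 300 bases, from 250 before to 50 after a transcription start in RefSeq on GRCm38.p6. Each window was found once, exactly, in NCBIM37, the mm9 assembly used by the files. There the Irf1 window is chr11:53583266-53583565, the Irf2 window chr8:47824849-47825148 and the Irf8 window chr8:123260008-123260307, all on the plus strand. Capitals mark motif matches:
Irf1: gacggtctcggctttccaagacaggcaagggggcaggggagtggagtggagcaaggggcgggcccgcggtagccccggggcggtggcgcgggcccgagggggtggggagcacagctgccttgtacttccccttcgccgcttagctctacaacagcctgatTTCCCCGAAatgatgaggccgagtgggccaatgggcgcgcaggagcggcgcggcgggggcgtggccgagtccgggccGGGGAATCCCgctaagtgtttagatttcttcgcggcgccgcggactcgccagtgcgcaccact
Irf2: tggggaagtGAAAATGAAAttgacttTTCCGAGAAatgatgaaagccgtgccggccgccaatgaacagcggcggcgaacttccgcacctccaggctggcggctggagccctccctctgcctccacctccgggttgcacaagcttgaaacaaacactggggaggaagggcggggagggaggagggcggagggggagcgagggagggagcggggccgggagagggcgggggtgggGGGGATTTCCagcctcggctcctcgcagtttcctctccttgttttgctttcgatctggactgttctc
Irf8: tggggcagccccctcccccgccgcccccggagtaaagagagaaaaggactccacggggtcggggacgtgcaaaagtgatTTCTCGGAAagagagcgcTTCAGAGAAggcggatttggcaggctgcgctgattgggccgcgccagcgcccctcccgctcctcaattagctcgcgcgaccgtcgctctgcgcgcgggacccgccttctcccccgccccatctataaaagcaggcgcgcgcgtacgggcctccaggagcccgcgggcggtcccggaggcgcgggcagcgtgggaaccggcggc

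The motifs were searched on both strands, as GAS (TTCNNNGAA), the ISRE core (GAAANNGAAA) and the NF-kappa B consensus. In the Irf1 window a GAS match, TTCCCCGAA, began at position -90 from the start, and an NF-kappa B match, GGGGAATCCC, at -13. The Irf2 window held an ISRE core, GAAAATGAAA, at -241, a GAS, TTCCGAGAA, at -224 and an NF-kappa B match, GGGGATTTCC, at -17. The Irf8 window held 2 GAS matches, TTCTCGGAA at -171 and TTCAGAGAA at -153. No 2 of these matches overlapped. Among all 32851 promoter windows of the table, 8.30% held a GAS, 3.44% an ISRE core and 8.46% an NF-kappa B match. The windows of Irf3, Irf4, Irf5, Irf7 and Irf9, and the second windows of Irf1 and Irf8, held none of these letters. A match describes the reference sequence and was not measured as a binding site.

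Irf1 encodes an activator that drives antigen presentation and many interferon gamma responses. The gene lies at chr11:53583516-53591876 on mm9. Its level was 27.5 FPKM in DTA day 1, against 1.52 FPKM in control day 1, and 30.9 FPKM in DTA day 5, against 1.40 FPKM in control day 5. Both DTA libraries were far above both controls, and the bounds that the authors deposited did not overlap: 26.8 to 28.7 FPKM in DTA day 1, against 1.31 to 1.73 FPKM in control day 1, and 29.2 to 32.7 FPKM in DTA day 5, against 1.12 to 1.68 FPKM in control day 5. The ratio of DTA to control was 18.2 at day 1 and 22.1 at day 5, with differences of 3.50 and 3.73. By size of the increase Irf1 stood at place 12 of the 2623 genes at 5 FPKM or more at day 1, and at place 69 of 9883 at day 5. Between DTA day 5 and DTA day 1 its difference was 0.16, a ratio of 1.12, and it was not called, where 1.16% of the 5783 genes measured were called higher and 1.44% lower.

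At day 1 Irf1 was the 1 member called of the 2 in the file; 0.933% of 5785 genes were called higher and 0.277% lower. Of the microglia and macrophage markers in that file, 3 that were too low to be called are given here: Fcer1g, an Fc receptor subunit, had 1.14 FPKM in DTA day 1 and 0.988 FPKM in control day 1, the lysosomal Cd68 had 1.92 and 0.982 FPKM in the same order, and Lyz2, a lysozyme gene of macrophages, had 1.08 and 1.09 FPKM. The part that these cells took in the Irf1 level was not tested. The Irf1 locus shares bases with Gm17334 on the opposite strand in the Gencode vM1 annotation. Whether the kit kept the strand is not given, so reads of the 2 cannot be told apart.

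Irf2 binds the same elements as Irf1 and is best known as an attenuator of interferon responses. It lies at chr8:47825099-47932812. The level was 20.9 FPKM in DTA day 5, against 7.76 FPKM in control day 5 and 7.12 FPKM in control day 1. DTA day 5 was above both controls, which were close to each other, with a ratio of 2.69 and a difference of 1.32 at day 5 and of 0.11 between the controls. With median ratio scaling the day 5 difference was 1.09, close to the limit of 1 for a call. Irf1 and Irf2 changed places: the ratio of Irf1 to Irf2 in FPKM was 1.48 in DTA day 5, 0.180 in control day 5 and 0.213 in control day 1.

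Irf3, the latent factor that most cells hold before any stimulus, lies at chr7:52253030-52258218. Its level was 17.3 FPKM in DTA day 5, 13.4 FPKM in control day 5 and 14.4 FPKM in control day 1. The 3 libraries were within a ratio of 1.29, the difference at day 5 was 0.34, and Irf3 was not called. It stood at place 4194 of 9883 genes, near the middle, and with median ratio scaling the difference was 0.11. The opposite-strand neighbour Bcl2l12, which overlaps Irf3 in the Gencode annotation, had 3.30 FPKM in DTA day 5, 1.11 FPKM in control day 5 and 1.06 FPKM in control day 1.

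Irf7, the inducible partner of Irf3 that amplifies the interferon alpha response, lies at chr7:148449088-148452300. It had 23.6 FPKM in DTA day 5, against 4.92 FPKM in control day 5 and 5.62 FPKM in control day 1. DTA day 5 was above both controls by a wide margin, with a ratio of 4.79 and a difference of 2.05 at day 5, and the controls differed by -0.16. The ratio of Irf7 to Irf3 was 1.37 in DTA day 5, 0.367 in control day 5 and 0.392 in control day 1, so the inducible factor passed the latent one in that library.

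Irf9, the DNA-binding subunit of ISGF3, lies at chr14:56222822-56228867. It had the highest level of the family in DTA day 5, 40.6 FPKM, against 6.80 FPKM in control day 5 and 5.18 FPKM in control day 1. The ratio was 5.97 and the difference 2.42 at day 5. The controls differed by 0.34, more than any other member's did, and less than the day 5 difference.

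Its partner Stat2 was called higher too, with 32.7 FPKM in DTA day 5 and 8.25 FPKM in control day 5, a difference of 1.86. At day 1 Stat2 had 10.4 FPKM in DTA and 7.24 FPKM in control and was not called. Between the DTA libraries Stat2 was called higher at day 5, by 1.56, where Irf1 was not called. The ratio of Irf9 to Stat2 was 1.24 in DTA day 5, 0.825 in control day 5 and 0.716 in control day 1.

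Irf8, which macrophages and microglia need for their development, lies at chr8:123260276-123280592. It had 5.62 FPKM in DTA day 5, against 0.583 FPKM in control day 5 and 0.399 FPKM in control day 1. Of these 3 libraries only DTA day 5 passed 1 FPKM, and the difference was 2.06, with 0.18 between the controls. With a pseudocount of 5 in place of 1 the difference was 0.93 and Irf8 was not called. Irf8 shares bases in the Gencode annotation with Gm20388, a gene on the same strand, so its reads may be split between the 2.

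Irf5, which acts with the adaptor MYD88 below Toll-like receptors in myeloid cells, lies at chr6:29476733-29487319. It had 2.08 FPKM in DTA day 5, against 0.475 FPKM in control day 5 and 0.589 FPKM in control day 1. The difference was 1.06, but no library reached 5 FPKM, so Irf5 was not called. The ratio of Irf8 to Irf5 was 2.70 in DTA day 5, 1.23 in control day 5 and 0.676 in control day 1.

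Spi1, which encodes PU.1, the partner that brings IRF8 and IRF4 to composite sites, had 2.66 FPKM in DTA day 5, against 0.113 FPKM in control day 5 and 0.334 FPKM in control day 1. Its difference of 1.72 came from levels under 5 FPKM as well. Microglia and macrophage markers moved with these genes. Of 17, 13 reached 5 FPKM at day 5 and all 13 were called higher, beside 2.96% of all genes. The median difference of the 17 was 1.93. Their summed level was 232 FPKM in DTA day 5, 42.2 FPKM in control day 5 and 45.0 FPKM in control day 1. Lyz2 had 8.32 FPKM in DTA day 5 and 0.269 FPKM in control day 5, and the Fc receptor gene Fcer1g had 12.7 and 1.06 FPKM in the same order. Tmem119 and P2ry12, which mark resident microglia, had 1.85 and 1.17 FPKM in DTA day 5, against 0.776 and 0.932 FPKM in control day 5. Their differences were 0.68 and 0.17, from levels too low for a call. The part of these cells in the levels of Irf8, Irf5 and the other members was not tested.

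Irf4, known from lymphocytes, dendritic cells and pigment cells, lies at chr13:30841127-30858796. It stayed far under 5 FPKM in the 4 libraries, with 0.215 FPKM in DTA day 1, 0.179 FPKM in control day 1, 0.0909 FPKM in DTA day 5 and 0.205 FPKM in control day 5. The DTA day 5 value was the lowest, and its deposited bounds of 0.0468 to 0.134 FPKM ended just below those of control day 5, 0.136 to 0.272 FPKM. The differences were 0.04 at day 1 and -0.14 at day 5, both far below the limit for a call. None of 10 lymphocyte markers reached 5 FPKM, so none could be called. Cd3e, Cd3g and Ncr1 were listed at 0 in DTA day 5 and both controls. The B cell gene Cd79a had 0.836 FPKM in DTA day 5 and 0.0227 FPKM in control day 5, and Cd79b had 0.378 and 0.154 FPKM. Cd4 and Cd8a lay lower in DTA day 5 than in control day 5. The list summed to 1.41 FPKM in DTA day 5, 0.350 FPKM in control day 5 and 0.312 FPKM in control day 1. The 6 dendritic cell markers summed to 4.41 FPKM in DTA day 5, 2.91 FPKM in control day 5 and 2.90 FPKM in control day 1. The 9 markers of pigment epithelium and melanocytes summed to 6.17 FPKM in DTA day 5, 11.3 FPKM in control day 5 and 37.8 FPKM in control day 1. The part of these cells in the Irf4 level was not tested.

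**Figure D2:**
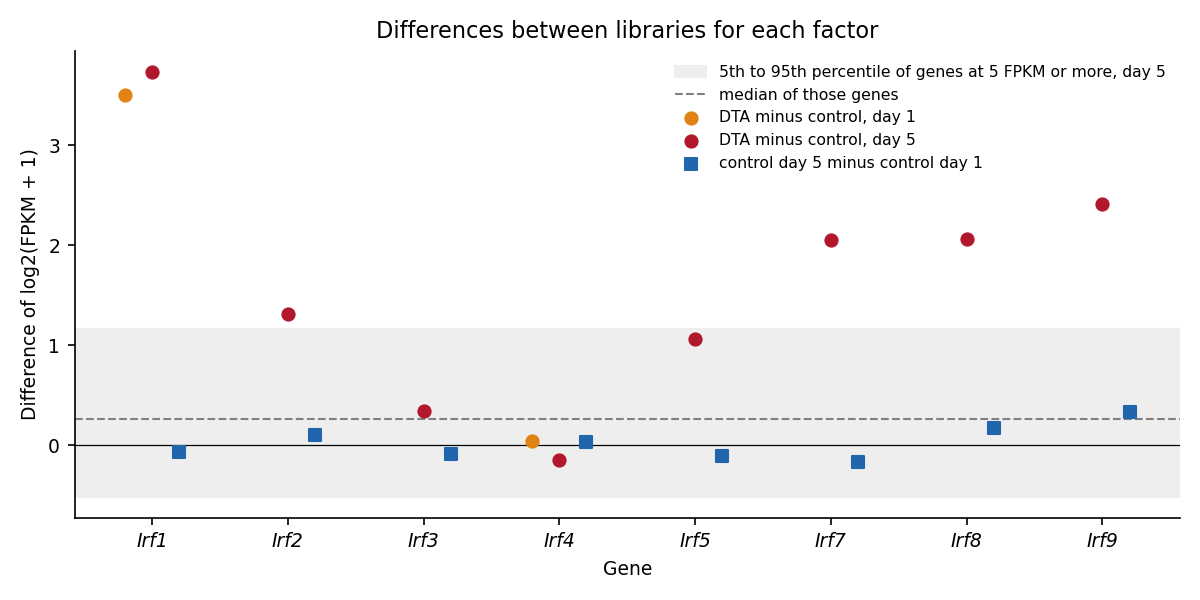
Differences of log2(FPKM + 1) of the members between DTA and control at day 1 and day 5 and between the control libraries (day 5 minus day 1), with the range from the 5th to the 95th percentile (-0.51 to 1.17) and the median (0.26) of genes at 5 FPKM or more at day 5. At day 5 the differences run from -0.14 for Irf4 to 3.73 for Irf1, while between the controls they run from -0.16 for Irf7 to 0.34 for Irf9.

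Because FPKM is per length, the levels of the members can be put in order within a library. In DTA day 5 the order was Irf9, Irf1, Irf7, Irf2, Irf3, Irf8, Irf5, Irf4. In control day 5 it was Irf3, Irf2, Irf9, Irf7, Irf1, Irf8, Irf5, Irf4, and in control day 1 Irf3, Irf2, Irf7, Irf9, Irf1, Irf5, Irf8, Irf4. The controls thus gave Irf7 and Irf9, and Irf5 and Irf8, in opposite order, so neither pair is separated there. In DTA day 5 the deposited bounds of Irf7, 20.0 to 23.5 FPKM, overlapped those of Irf2, 18.4 to 21.0 FPKM, so that pair is not separated either. In control day 5 the bounds of Irf2, 6.70 to 8.23 FPKM, overlapped those of Irf9, 6.19 to 7.43 FPKM. Irf2 and Irf9 are thus not separated in that library. The bounds hold no spread between mice. Of the 26 member values 24 lay within their own bounds; Irf3 in control day 1 and Irf7 in DTA day 5 lay above them.

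Summed over the 8 genes, the family had 141 FPKM in DTA day 5, against 35.6 FPKM in control day 5 and 35.0 FPKM in control day 1. Irf3 gave 12.2% of that sum in DTA day 5, 37.7% in control day 5 and 41.0% in control day 1. Irf9 gave 28.8% in DTA day 5, 19.1% in control day 5 and 14.8% in control day 1, and Irf1 gave 21.9%, 3.93% and 4.34% in the same order. Irf9 and Irf1 thus led the sum in DTA day 5, where Irf3 led it in both controls. Irf2 came next in both controls, though in control day 5 it was not separated from Irf9. Irf8, Irf5 and Irf4 together stayed a small part, with 3.99%, 1.48% and 0.0644% in DTA day 5.

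**Figure D3:**
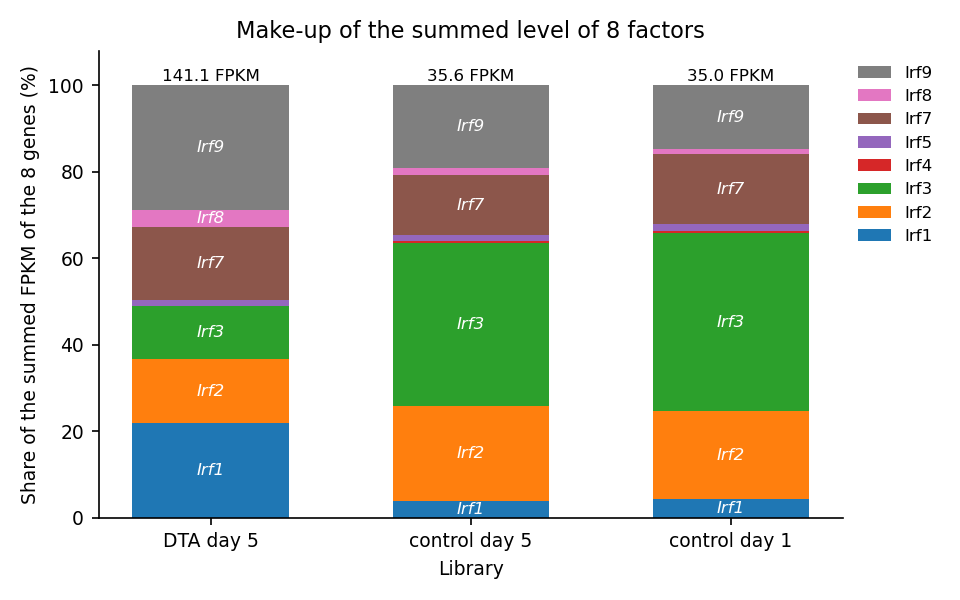
Share of each member, in percent, in the summed FPKM of the 8 members, in DTA day 5 and the 2 control libraries; DTA day 1 is not drawn because 6 members are not in its file. Irf3 takes 12.2% in DTA day 5, against 37.7% and 41.0% in control day 5 and control day 1.

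Upstream of the family, interferon transcripts were barely seen. Of 18 interferon genes, 14 were listed at 0 in DTA day 5, 16 in control day 5 and 18 in control day 1, and none reached the 5 FPKM needed for a call. Ifnb1, interferon beta, had 0.221 FPKM in DTA day 5 and was listed at 0 in both controls. Ifnab, an interferon alpha gene, had 0.324 FPKM in DTA day 5 and 0.0273 FPKM in control day 5, and was listed at 0 in control day 1; the interferon alpha genes are near-identical copies, so their split is uncertain. Ifng, interferon gamma, had 0.00906 FPKM in DTA day 1 and was listed at 0 in the other 3 libraries.

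Called higher at day 5 were 2.96% of all genes measured, and 6.75% of those that reached 5 FPKM. Of the 10 receptor, JAK and STAT genes measured in both libraries at day 5, Stat2 alone was called higher, with a median of 0.40. The interferon gamma receptor chain Ifngr1 had 9.88 FPKM in DTA day 5 and 11.9 FPKM in control day 5. Among 22 sensors, adaptors and kinases that lead to IRF activation, 10 reached 5 FPKM and 4 were called higher, with a median of 0.63. With median ratio scaling, or with a pseudocount of 5, 1 was called. The 4 were the RNA sensors Ddx58, with 7.12 FPKM in DTA day 5 and 0.940 FPKM in control day 5, and Ifih1, with 5.50 and 0.710 FPKM in the same order, the ubiquitin ligase Trim25, with 14.8 and 5.81 FPKM, and Myd88, with 9.13 and 3.84 FPKM. Ddx58, Ifih1 and Myd88 passed 5 FPKM only through their DTA value. Trim25 and Myd88 exceeded the limit for a call narrowly, with differences of 1.21 and 1.07. The IRF3 and IRF7 kinase gene Tbk1 had 18.4 FPKM in DTA day 5 and 9.87 FPKM in control day 5, a difference of 0.83, and was not called. Of the 8 partners and cofactors 3 reached 5 FPKM and none was called. Of these, Irf2bp1 had 38.9 FPKM in DTA day 5 and 24.5 FPKM in control day 5, and Irf2bp2 had 9.53 and 9.04 FPKM; both encode corepressors that bind IRF2.

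Downstream, 9 of 24 type I interferon targets with ISRE promoters reached 5 FPKM at day 5, all only in DTA, and 8 were called higher. The median difference of the 24 was 1.41. Largest were Bst2, which tethers budding virus, at 3.34, Ifit1, which binds foreign RNA, at 2.90 and the ubiquitin-like Isg15 at 2.57. Of 24 targets of interferon gamma and IRF1, 13 reached 5 FPKM and the same 13 were called higher, with a median of 1.75 over the 24. All but Tapbp and B2m passed 5 FPKM only in DTA day 5. Over all genes measured 2.96% were called higher, and 6.75% of those that reached 5 FPKM. The chemokine gene Cxcl10 had 35.6 FPKM in DTA day 5, 0.0565 FPKM in control day 1 and was listed at 0 in control day 5. The GTPase genes Irgm1 and Igtp differed by 2.95 and 2.89. No gene of either list was called lower, but a lower call needs 5 FPKM or more in control day 5. The highest type I target there had 4.33 FPKM, so no gene of that list could be called lower. In the interferon gamma and IRF1 list only Tapbp, at 17.9 FPKM, and B2m, at 16.4 FPKM, could. These lists were chosen with earlier results of these data known, and their direction is no independent evidence.

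**Figure D4:**
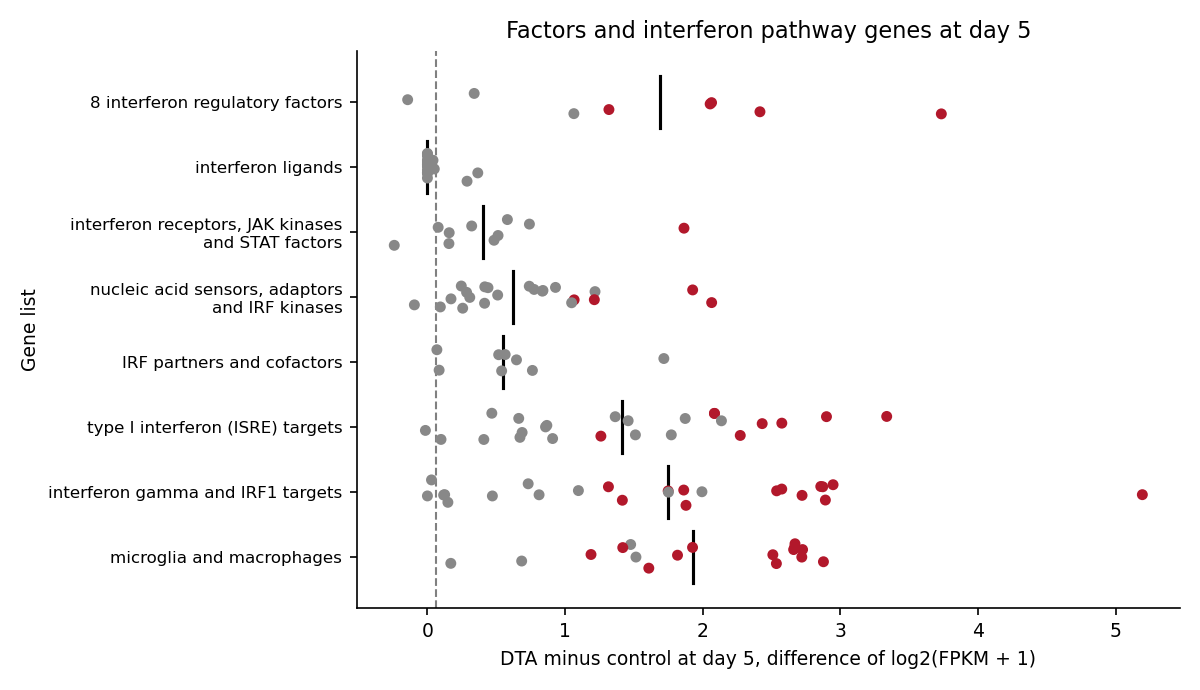
Differences of log2(FPKM + 1) between DTA and control at day 5 for the members and for the lists of ligands, receptors, sensors, partners, targets and microglia markers, with a point per gene (red where called higher), a bar at each median and a dashed line at the median of all genes, 0.06. The medians are 1.69 for the members, 1.41 and 1.75 for the target lists, 1.93 for the microglia markers and 0 for the ligands.

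At day 1, when Irf1 was already high, 4 genes of each target list were in the DTA file. Of these, Cmpk2 had 7.81 FPKM in DTA day 1 and 4.35 FPKM in control day 1 and was not called. Ifi35, Xaf1, Ifi47 and Nos2 were under 5 FPKM in both libraries, so they could not be called. Rsad2, an antiviral enzyme gene, was called higher, with 5.12 FPKM in DTA day 1, against 0.258 FPKM in control day 1. Irgm1 had 7.80 FPKM in DTA day 1 and 1.57 FPKM in control day 1, and Igtp had 5.65 and 1.94 FPKM in the same order. Both were called higher, where 0.933% of all genes measured were. The 3 called target genes reached 5 FPKM only in DTA. The call of Rsad2 ended with median ratio scaling, and with a pseudocount of 5 none of the 3 was called. From there the genes parted. Between DTA day 5 and DTA day 1 Igtp was called higher by 1.67 and Irgm1 by 1.03, while Irf1 differed by 0.16 and Rsad2 by -0.51, neither of them called.

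Genes with the pattern most like that of Irf1 were ranked by the distance between log2(FPKM + 1) profiles, each centred on its own mean over the 4 libraries. The search covered the 2777 genes with a value in all 4 libraries and 5 FPKM or more in one. It was thus limited to genes of the short DTA day 1 file. Genes with small RNA, ribosomal protein, Gm or Rik names were passed over, as was every symbol that begins with Rn, whatever it encodes. Nearest was the stress gene Gadd45b, at a distance of 0.30, followed by the cytokine feedback inhibitor Socs3 at 0.77. Then came the chemokine Ccl5 at 1.07, the early growth response factor Egr2 at 1.11 and the chemokine Ccl2 at 1.17. Gadd45b had 54.0 and 73.9 FPKM in DTA day 1 and day 5, against 3.56 and 4.32 FPKM in control day 1 and day 5. Like Irf1, it was high in both DTA libraries. Ccl5 had 5.32 and 18.4 FPKM in DTA day 1 and day 5, against 0.111 and 0.0777 FPKM in control day 1 and day 5, so it lay lower at day 1 than at day 5 within DTA.

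**Figure D5:**
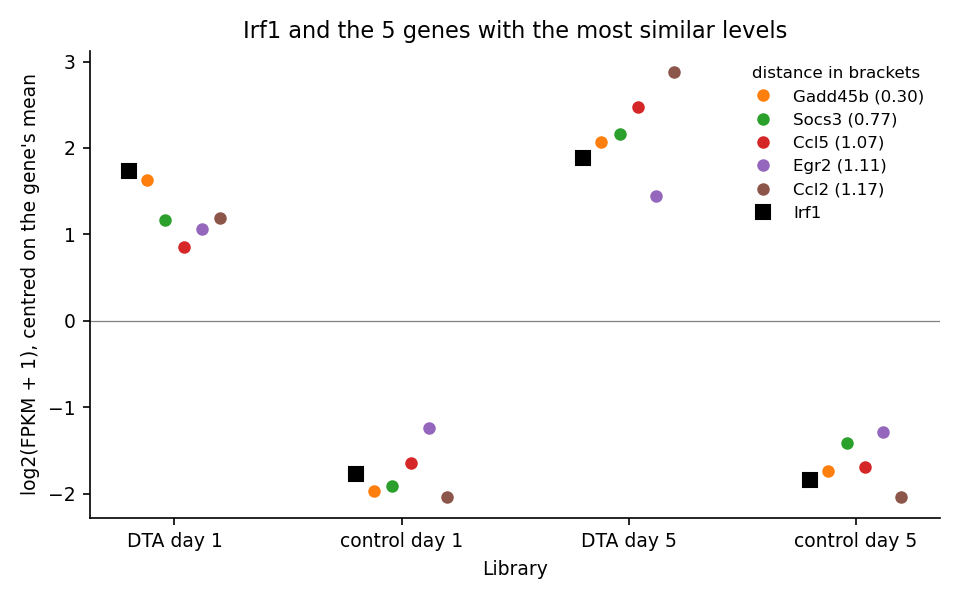
Levels of Irf1 and its 5 nearest genes, among those with a value in all 4 libraries, as log2(FPKM + 1) centred on each gene's mean, in each library. All 6 genes lie above their mean in both DTA libraries and below it in both controls, and Gadd45b follows Irf1 most closely, at a distance of 0.30.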

How the data were processed

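Total RNA of whole retinas was sequenced after preparation with an Illumina mRNA kit, per the labels' protocols. The authors deposited FPKM per gene with lower and upper bounds and a status, per the file headers. Per the submitters' processing notes, the genome build was mm9 and the tools included Cufflinks 2.1.1, bcl2fastq 1.8.4 and CASAVA 1.8.2, with no role stated; aligner and annotation were not given in the sources used here. Values whose status was FAIL or HIDATA were read as missing, loci of 1 symbol were summed, and 1 was added to locus starts, which count from 0. FPKM is relative to all fragments of a library, so a fall of abundant transcripts lifts all others. For the short DTA day 1 file it was assumed that normalisation had covered its full library.

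Differences used a pseudocount of 1, and a call needed a size of at least 1 and 5 FPKM in one library. With 1 library per group no test was made. The rule for the members uses no measured value, but the family and the lists were chosen with earlier results of these data known. Named were all members, from each list the up to 3 genes with the largest differences among those at 1 FPKM or more, a few pathway genes by name, and the 5 genes most like each member that reached 5 FPKM; other genes named were added after their values were seen. Spi1 and Irf2bpl stand in the files under older symbols. Protein sequences were not used here, and 1 further gene of the family is not reported here. Tools were Python 3.11.15, numpy 2.4.6, pandas 2.3.3 and matplotlib 3.10.9. Alternatives changed the pseudocount, scaling, floor, size, locus choice and control.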

Additional observations from a re-analysis of the deposited data

Results flagged for a closer look

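Irf4 had differences of opposite sign at the 2 days, neither of them called. Its difference between DTA and control was -0.14 at day 5 and 0.04 at day 1, so the day 5 difference less the day 1 difference was -0.187 on the log2(FPKM + 1) scale. This difference was not tested, since each group holds 1 library. At day 1 the deposited bounds overlapped, 0.173 to 0.256 FPKM in DTA and 0.135 to 0.221 FPKM in control. Irf4 was below 5 FPKM in the 4 libraries.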

How the results depend on the processing

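No paired analysis was possible because each group holds 1 library, and for the same reason no library could be left out of a group. Each member kept its direction in each comparison under every alternative run. Irf8 lost its call at day 5 with a pseudocount of 5, at 0.93, and Irf5 gained one, at 1.06, with a floor of 1 FPKM or none; the other member calls were as reported. Pathway genes called higher at day 1 numbered 3, against 0 with a pseudocount of 5 and 5 with a size of at least 0.5. Called sensors, adaptors and kinases at day 5 numbered 1 with median ratio scaling or a pseudocount of 5, against 4, and called type I interferon targets at day 1 numbered 0 under the same 2 alternatives, against 1. Called type I interferon targets at day 5 numbered 14 with a floor of 1 FPKM or none, against 8. Over all genes, calls in both directions at day 5 numbered 842, against 472 with a pseudocount of 5 and 3076 with a size of at least 0.5. At day 1 they numbered 70, against 46 and 178 under the same alternatives. With a size of at least 0.5 they numbered 469 between the DTA days and 679 between the controls, against 150 and 240. The shallow DTA day 5 library and the short DTA day 1 file limit what can be said of low genes and of 6 members at day 1.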

Other observations

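For the members in 3 libraries only, profiles over DTA day 5 and both controls were compared among 10095 genes. Genes with small RNA, ribosomal protein, Gm, Rik or Rn names were passed over here too. With 3 points many genes lie close to any member, so these neighbours are a description. Nearest to Irf7 was Ifrd1, at a distance of 0.00515, followed by the lysosomal thiol reductase gene Ifi30 at 0.0227, Parp9 at 0.0305, the stress phosphatase subunit gene Ppp1r15a at 0.0323 and the mRNA-decay factor gene Zfp36 at 0.0502. Ifi30 had 18.6 FPKM in DTA day 5, against 3.63 FPKM in control day 5 and 4.20 FPKM in control day 1. Nearest to Irf9 were Cd68 at 0.103, Tnnt2 at 0.162, the death receptor gene Fas at 0.166, Nfkbie at 0.168 and H2-Gs10 at 0.168. Fas had 6.93 FPKM in DTA day 5, against 0.477 FPKM in control day 5 and 0.352 FPKM in control day 1. Nearest to Irf8 were Rfx2 at 0.0498, Nme2 at 0.0856, Parp10 at 0.102, the clock repressor gene Nr1d1 at 0.107 and Fosb at 0.119. Nearest to Irf2 were Map3k1 at 0.0142, Gpatch4 at 0.0411, Myo5b at 0.0416, Tubb6 at 0.0436 and Gpr62 at 0.0468, and nearest to Irf3 were Ino80c at 0.00271, Snf8 at 0.00282, Akr1a4 at 0.00471, Tcp1 at 0.00503 and Snx3 at 0.00508.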
